A study of Homo sapiens with 10 samples.

Results

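The genes described here are those of the hexosamine biosynthetic pathway and of O-GlcNAc cycling. They were taken by symbol from a table of 32738 genes, and all 8 listed symbols (GFPT1, GFPT2, GNPNAT1, PGM3, UAP1, NAGK, OGT and MGEA5) were found. MGEA5 is the older symbol of OGA. Of the 8 genes, 7 passed the filter on low counts, as did 12733 genes of the whole table, and GFPT2 did not. Each of the 7 had at least 35 counts in every library, so that none of them passed through a single condition.

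HepG2, an established human hepatoma cell line that keeps many hepatocyte functions, was used in all libraries. Cells were kept for 17 h either in medium containing tunicamycin at 2 µg/ml or in plain medium as control. The labels name no solvent for the control. Each condition had 5 libraries, from replicate experiments on separate days, and no genetic change or other agent is given for either condition.

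The hexosamine pathway turns fructose 6-phosphate, glutamine, acetyl-CoA and UTP into UDP-GlcNAc, the activated form of N-acetylglucosamine. UDP-GlcNAc is used in the ER and Golgi to build N-glycans, and in the cytosol and nucleus for O-GlcNAc, a single sugar that OGT puts on serine and threonine residues and OGA takes off again. Tunicamycin blocks DPAGT1, the enzyme that moves the first sugar phosphate from UDP-GlcNAc to dolichol phosphate, so that N-glycans cannot be started and proteins misfold in the ER. GFPT1 is known as a target gene of the unfolded protein response.

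Libraries were made from mRNA 3′ ends with the QuantSeq method, in which a transcript gives about the same number of fragments whatever its length, so that counts of different genes can be set side by side without dividing by length. Control libraries held 4242538 to 4888292 counts and tunicamycin libraries 2234682 to 5029864, the smallest being tunicamycin replicate 5. The mitochondrial share of the counts was 22.7% to 25.2% in control and 18.3% to 28.8% in tunicamycin libraries. Values below are normalized counts, which are counts divided by the library size scaled by edgeR's TMM method (trimmed mean of M-values) and multiplied by the mean of these sizes. A gene was called higher or lower with tunicamycin where edgeR's quasi-likelihood test, with Benjamini-Hochberg adjustment over all genes tested, gave an adjusted p under 0.05. The 8 hepatocyte markers used here were all present (ALB, AFP, APOA1, APOB, TF, TTR, SERPINA1 and HNF4A). Their summed level was 62627 to 80908 normalized counts in control and 50565 to 56965 in tunicamycin libraries. Of these 8 markers, 4 were called lower, beside 16.6% of all genes tested. Of 7 markers of blood, endothelial and fibroblast cells found in the table, 5 were at 0 in every library and VWF had at most 3 counts in all. The exception, CD68, gave a summed level of 16.6 to 35.3 in control and 10.1 to 26.1 with tunicamycin. The part that these shifts have in the results was not tested. In bulk RNA, fewer cells that express a gene and less RNA per cell cannot be told apart.

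The treatment can be read from genes of the ER stress response. HSPA5, the ER chaperone BiP, had 7735 to 9289 normalized counts in control and 60353 to 72113 in tunicamycin libraries. Of 10 ER stress markers listed, 9 were higher and 1 lower, beside 17.6% and 16.6% of all genes tested. Their median log2 fold change was 2.01, beside -0.0033 over all genes tested. This list was chosen with earlier results of these data known. The markers with the largest changes were DNAJB9, HSPA5, HERPUD1 and HSP90B1, with log2 fold changes of 3.76, 2.97, 2.78 and 2.72. The lower one was XBP1, at a log2 fold change of -1.01, which was named after its value was seen. XBP1 mRNA is spliced by IRE1 in ER stress, and counts per gene do not separate its forms.

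Short stretches of promoter are shown because 4 of the 8 genes, GFPT1, GNPNAT1, PGM3 and UAP1, share a 6-letter word in them. The windows run from 250 bases before to 50 bases after each RefSeq start site on GRCh38.p14, and were searched on both strands. The word is CACGTC, which reads GACGTG on the other strand. It was chosen after these promoters had been looked at, and it is common, standing in 7.81% of 35116 windows and in at least 1 window of 9.34% of 27305 genes. The lines below give 28 bases around each site, 5′ to 3′ on the gene's own strand, from RefSeq, with the word in capitals.
GFPT1 (chr2:69387390-69387417, minus strand): cgagccactgcCACGTCgccgccgccag
GNPNAT1 (chr14:52791563-52791590, minus strand): gttggcgctgcCACGTCtgggccgcggt
PGM3 (chr6:83193256-83193283, minus strand): ccacgcagggcCACGTCtgcggttctga
UAP1, upstream site (chr1:162561538-162561565, plus strand): ctcccggcgctGACGTGtctgggcggtc
UAP1, downstream site (chr1:162561860-162561887, plus strand): ccacgcgctcaGACGTGgacacgcgtcg

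Counted from the start site, the word lay at bases -179 to -174 in GFPT1 and at -7 to -2 in PGM3, whereas in GNPNAT1 it lay after the start, at 29 to 34. In UAP1, which has several annotated starts, the upstream site was at 19 to 24 of the first start and at -173 to -168 of the next, and the downstream site was at 2 to 7 of another. By the GENCODE gene spans given with each gene, the sites of GNPNAT1 and PGM3 and the downstream site of UAP1 lie inside the gene, and the site of GFPT1 and the upstream site of UAP1 lie before it. In GFPT1, GNPNAT1 and PGM3 the word was preceded by GC, giving GCCACGT, which overlaps it by 5 letters and is in 3.22% of windows. UAP1 had the 6-letter word without this extension. The promoters of GFPT2, NAGK, OGT and MGEA5 did not contain these letters. Longer elements of the ER stress response were also searched, namely the ER stress response elements ERSE (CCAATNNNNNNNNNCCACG, in 0.0769% of windows), ERSE-II (ATTGGNCCACG, 0.0541%), the core of the unfolded protein response element (TGACGTGG, 0.729%) and the C/EBP-ATF composite element (TGATGNAAT, 0.991%). None of these 4 was found in the windows of the 8 genes. A match is a description of the letters, and the absence of one says nothing about binding of a factor.

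The comparison of tunicamycin with control asked how the enzymes that make, recycle and use UDP-GlcNAc for O-GlcNAc respond when the first step of N-glycan assembly is blocked. Of the 7 genes tested, 4 were higher with tunicamycin (GFPT1, OGT, GNPNAT1 and UAP1) and 0 were lower by edgeR's quasi-likelihood test. Over all 12733 genes tested, 17.6% were called higher and 16.6% lower. The 8 genes were chosen with earlier results of these data known. The median log2 fold change of the 7 was 0.57, beside -0.0033 over all genes tested. In the same 4 genes every tunicamycin library was above every control library, as in 11.7% of all genes tested. The summed level of the 8 genes was 1048 ± 9.89 normalized counts in control and 2035 ± 64.8 in tunicamycin libraries (SD, n = 5 each). GFPT1 made up 21.2% to 27.6% of that sum in control and 41.5% to 46.4% with tunicamycin.

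GFPT1 (ENSG00000198380, chr2:69319780-69387250 on GRCh38, minus strand) encodes glutamine-fructose-6-phosphate transaminase, the rate-limiting enzyme at the entry of the pathway. It had 221, 287, 241, 279 and 239 normalized counts in control replicates 1 to 5, and 887, 968, 873, 918 and 878 in the tunicamycin replicates 1 to 5. Every tunicamycin library was far above every control library, and the libraries of a condition lay close together. The means were 253 ± 28.2 and 905 ± 39.3 (SD, n = 5 each), and the log2 fold change was 1.84 (SE 0.09, 95% interval 1.64 to 2.03) or 3.57-fold (edgeR's quasi-likelihood test, Benjamini-Hochberg adjusted p = 2.12e-11). Among all genes tested GFPT1 ranked 165 by log2 fold change and 20 by p. Its log2 change within the 5 replicate pairs was between 1.72 and 2.00, so that no pair stood apart.

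GFPT2 (ENSG00000131459, chr5:180300698-180353336, minus strand) encodes the paralog of GFPT1 that carries out the same reaction and is found in other tissues. It was at 0 counts in 9 of 10 libraries and had 1 count in tunicamycin replicate 4. A count of 0 allows up to 3 counts in a library, and GFPT1, with 235 to 1050 counts, was at least 78.3-fold above that limit in every control library and at least 145-fold above it in the tunicamycin libraries that had 0 counts of GFPT2. These limits cover counting error only. A change in GFPT2 was not detectable at this depth.

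**Figure D1:**
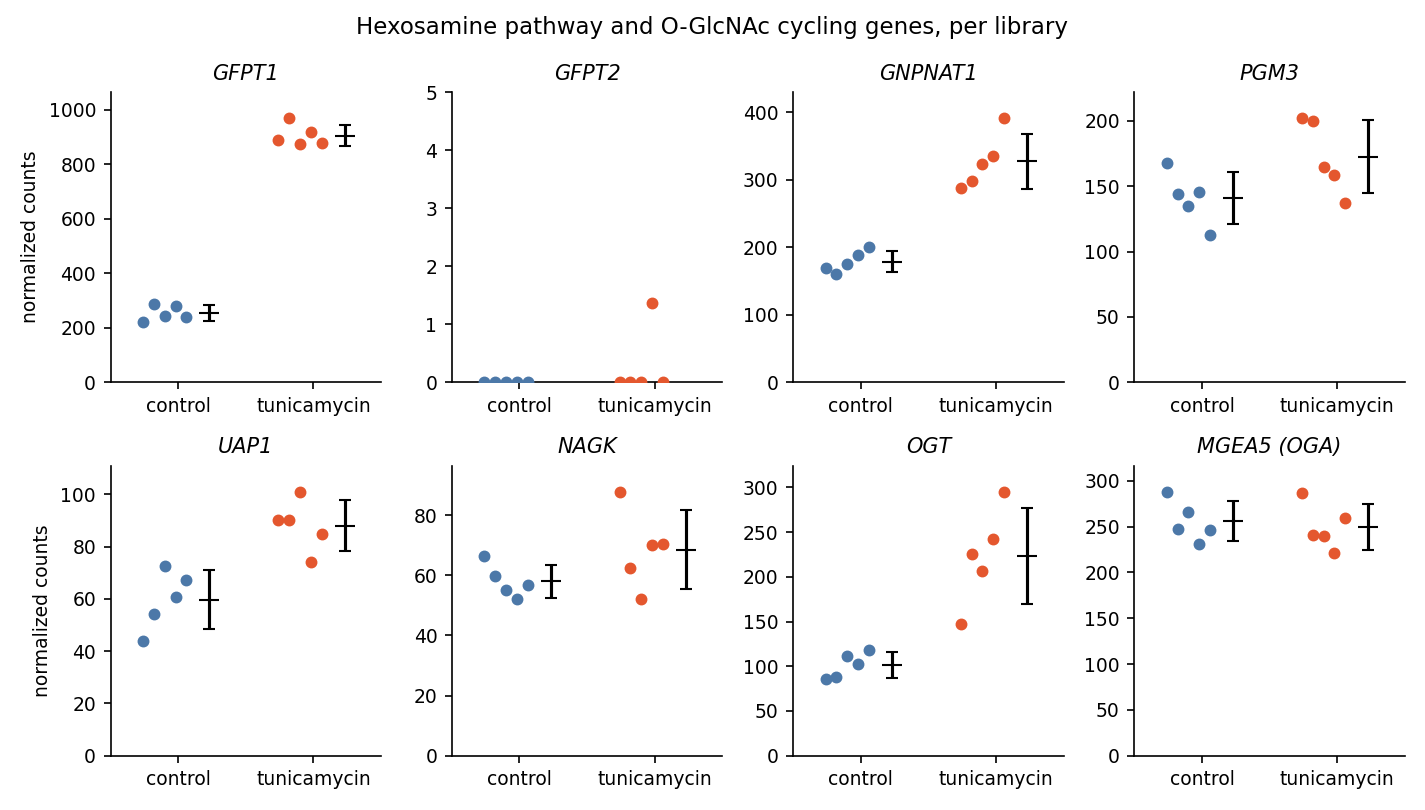
Normalized counts of each of the 8 genes (y axes, linear, from 0) in the 5 control (blue) and 5 tunicamycin (orange) libraries, each point being a library in order of replicate number, with the mean and SD beside the points except for GFPT2. GFPT1, GNPNAT1, UAP1 and OGT show no overlap between conditions, PGM3, NAGK and MGEA5 overlap, and GFPT2 has a single count in tunicamycin replicate 4, drawn at 1.37 normalized counts.

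GNPNAT1 (ENSG00000100522, chr14:52775193-52791668, minus strand) encodes the acetyltransferase that makes N-acetylglucosamine 6-phosphate from acetyl-CoA. Its level was 169, 160, 175, 189 and 200 normalized counts in control replicates 1 to 5 and 288, 298, 324, 335 and 391 in the tunicamycin replicates 1 to 5. The groups did not overlap, and tunicamycin replicate 5 was the highest library. It rose by 0.87 on the log2 scale (SE 0.11, 95% interval 0.64 to 1.09), from 179 ± 16.2 to 327 ± 40.6 or 1.82-fold (edgeR's quasi-likelihood test, adjusted p = 4e-06). The log2 change within the 5 replicate pairs was between 0.77 and 0.97. An exon of ENSG00000259049 overlaps GNPNAT1 on the opposite strand, and whether counting used the strand is not given in the sources used here.

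PGM3 (ENSG00000013375, chr6:83147324-83193936, minus strand) encodes the mutase that moves the phosphate of N-acetylglucosamine from position 6 to position 1. It had 168, 144, 135, 146 and 113 normalized counts in control replicates 1 to 5 and 202, 200, 165, 159 and 137 in the tunicamycin replicates 1 to 5. Groups overlapped, and in all 5 replicate pairs the tunicamycin library was the higher one, by 0.13 to 0.48 on the log2 scale. The means were 141 ± 19.9 and 173 ± 27.9, with a log2 fold change of 0.31 (SE 0.13, 95% interval 0.03 to 0.58 before adjustment) that missed the threshold (edgeR's quasi-likelihood test, adjusted p = 0.0771). With the replicate number as a block, the log2 fold change was 0.29 and was called (edgeR's quasi-likelihood test, adjusted p = 0.0375), but not with DESeq2 and the same block (adjusted p = 0.109). It was also called without control replicate 1, at 0.38 (adjusted p = 0.0305), and without tunicamycin replicate 5, at 0.37 (adjusted p = 0.0406), in edgeR's quasi-likelihood test. Exons of DOP1A overlap PGM3 on the opposite strand.

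UAP1 (ENSG00000117143, chr1:162561722-162601240, plus strand) encodes the pyrophosphorylase that joins N-acetylglucosamine 1-phosphate to UTP and so completes UDP-GlcNAc. Control replicates 1 to 5 had 43.9, 54.4, 72.6, 60.9 and 67.1 normalized counts and tunicamycin replicates 1 to 5 had 90.4, 90.3, 101, 74.2 and 84.7. The lowest tunicamycin library, replicate 4, was only just above the highest control library, replicate 3. The log2 fold change was 0.57 (SE 0.15, 95% interval 0.25 to 0.89), from 59.8 ± 11.2 to 88.1 ± 9.79 or 1.48-fold (edgeR's quasi-likelihood test, adjusted p = 0.00741). It rested on 42 to 107 counts per library, and the replicate pairs ranged from 0.28 to 1.03.

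NAGK (ENSG00000124357, chr2:71064344-71079808, plus strand) encodes the kinase that returns free N-acetylglucosamine to the pathway, the salvage route. Its levels were 66.3, 59.7, 55.1, 52 and 56.9 normalized counts in control replicates 1 to 5 and 87.8, 62.5, 52, 70.1 and 70.6 in the tunicamycin replicates 1 to 5. The groups overlapped, with tunicamycin replicate 3 as low as the lowest control library. The log2 fold change of 0.24 (SE 0.16, 95% interval -0.09 to 0.58) missed the threshold (edgeR's quasi-likelihood test, adjusted p = 0.261), and 4 of 5 pairs were higher. An exon of ENSG00000272735 overlaps it on the opposite strand.

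**Figure D2:**
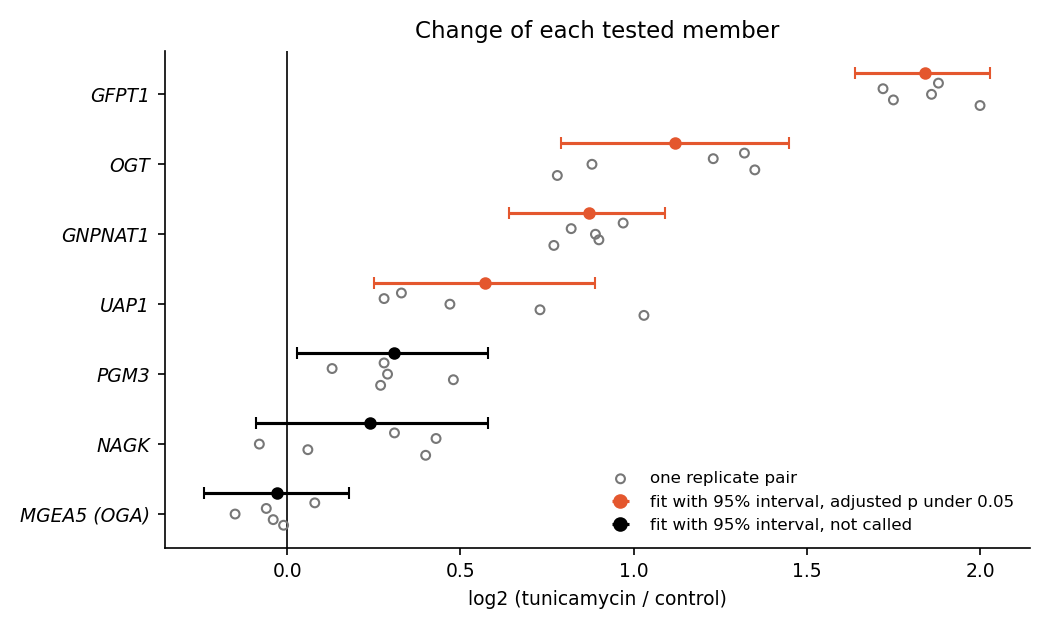
Log2 fold change of tunicamycin over control (x axis) for the 7 tested genes (y axis), with filled points and bars for the fit and its 95% interval and open points for the 5 replicate pairs. GFPT1 lies at 1.84, OGT at 1.12, GNPNAT1 at 0.87 and UAP1 at 0.57 (orange, adjusted p under 0.05), while PGM3, NAGK and MGEA5 (black) were not called.

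Of the pair of enzymes that add and remove O-GlcNAc, the first was higher with tunicamycin and the other was not called. OGT (ENSG00000147162, chrX:71533087-71575892, plus strand), the O-GlcNAc transferase, had 85.2, 88.3, 112, 103 and 118 normalized counts in control replicates 1 to 5 and 147, 225, 207, 242 and 295 in the tunicamycin replicates 1 to 5. The groups did not overlap, although tunicamycin replicate 1 was closer to the controls than the other tunicamycin libraries were. OGT rose by 1.12 on the log2 scale (SE 0.16, 95% interval 0.79 to 1.45), from 101 ± 14.3 to 223 ± 53.7 or 2.17-fold (edgeR's quasi-likelihood test, adjusted p = 1.9e-05). Replicate pairs were between 0.78 and 1.35.

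MGEA5 (ENSG00000198408, OGA in the GENCODE annotation, chr10:101784443-101818465, minus strand) encodes O-GlcNAcase. It had 288, 248, 266, 231 and 246 normalized counts in control replicates 1 to 5 and 287, 241, 240, 221 and 260 in the tunicamycin replicates 1 to 5. The ranges lay almost on top of each other, and 1 of 5 pairs was higher. The log2 fold change was -0.03 (SE 0.10), and its 95% interval of -0.24 to 0.18 leaves out a change of the size seen in OGT (edgeR's quasi-likelihood test, adjusted p = 0.83).

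The ratio of OGT to MGEA5 within a library does not depend on how libraries are scaled, apart from the effect of the constant added to each count. On the log2 scale, with 0.5 added to each normalized count, it was -1.75, -1.48, -1.24, -1.16 and -1.06 in control replicates 1 to 5 and -0.96, -0.10, -0.21, 0.13 and 0.18 in the tunicamycin replicates 1 to 5. Every tunicamycin library was above every control library, with tunicamycin replicate 1 just above control replicate 5. The mean rose by 1.15, from -1.34 ± 0.28 to -0.19 ± 0.46 (SD, n = 5 each), that is from 0.395 to 0.874 OGT counts per MGEA5 count (2-sided exact permutation test, p = 0.00794, the smallest that 5 against 5 libraries allow). Both genes were chosen with earlier results of these data known, and the ratio combines levels already given. Its p-value is therefore a description and no independent test.

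The change of GFPT1, the first enzyme, was larger than those of the enzymes after it. The ratios of GFPT1 to the other enzymes were added after the values of these genes were seen. The log2 ratio of GFPT1 to GNPNAT1 was 0.50 ± 0.22 in control and 1.47 ± 0.21 with tunicamycin, a rise of 0.97. The ratio to UAP1 went from 2.09 ± 0.30 to 3.36 ± 0.19, a rise of 1.27. That to PGM3 went from 0.85 ± 0.27 to 2.40 ± 0.21, a rise of 1.55. In all 3 ratios every tunicamycin library was above every control library and 5 of 5 pairs were higher. The exact permutation p was 0.00794 for each, and 0.00794 after Benjamini-Hochberg adjustment over the 4 ratios. Since these 3 ratios were chosen with the values known, their p-values are a description and no independent test. With replicate pairs in place of groups, an exact sign-flip test of 5 pairs cannot go below 0.0625, which is what each of the 4 ratios gave.

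**Figure D3:**
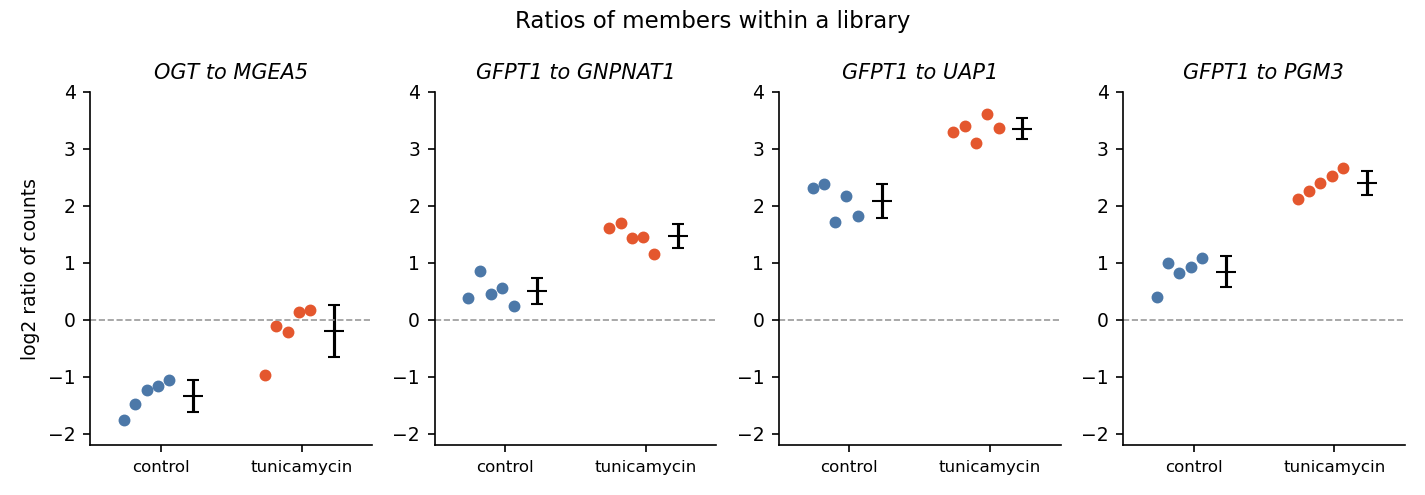
Log2 ratio of the counts of 2 genes in the same library (y axis, dashed line at equal counts) in control (blue) and tunicamycin (orange) libraries, each point being a library, with mean and SD. The mean rose from -1.34 to -0.19 for OGT to MGEA5, and by 0.97, 1.27 and 1.55 for GFPT1 to GNPNAT1, UAP1 and PGM3.

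The order of the levels changed between conditions. In control libraries MGEA5 (256 ± 22 normalized counts) and GFPT1 (253 ± 28.2) were highest and overlapped, with MGEA5 above GFPT1 in 3 of 5 libraries. GNPNAT1 came next, clear of GFPT1, then PGM3, whose range overlapped those of GNPNAT1 and OGT. UAP1 and NAGK were lowest and overlapped, as 59.8 ± 11.2 and 58 ± 5.42. With tunicamycin GFPT1 stood alone at the top. GNPNAT1 came next, clear of GFPT1, while its lowest library (288) was only just above the highest of MGEA5 (287), both in replicate 1. OGT in replicate 5 (295) was above GNPNAT1 in replicate 1 (288), so that the ranges of OGT and GNPNAT1 overlapped. MGEA5, OGT and PGM3 followed, with MGEA5 overlapping OGT and OGT overlapping PGM3. MGEA5 was above OGT in 3 of 5 libraries, and PGM3 lay above UAP1 without overlap. UAP1 (88.1 ± 9.79) and NAGK (68.6 ± 13.1) were again the lowest, with UAP1 above NAGK in 5 of 5 libraries although their ranges overlapped.

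Genes around the pathway were taken as 5 lists with 32 genes, which were chosen with earlier results of these data known. The counts of called genes are therefore a description and no independent test. Of the 32 genes, 28 were tested. Of these 28, 10 were called higher and 3 lower, beside 17.6% and 16.6% of all genes tested, and their median log2 fold change was 0.11. With libraries scaled by library size only, which moved the median of all genes to -0.083, 8 were higher and 7 lower. The first enzymes that use UDP-GlcNAc on dolichol phosphate had 3 of 3 higher and a median log2 fold change of 0.73. The list of glucosamine phosphate turnover and the sialic acid branch had 3 of 9 higher and 1 lower. Nucleotide sugar transporters had 2 of 6 higher and 1 lower. Enzymes that supply the substrates had 2 of 8 higher and 1 lower, and of 2 other O-GlcNAc genes 0 were called.

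DPAGT1, the target of tunicamycin, had 361, 270, 270, 304 and 273 normalized counts in control replicates 1 to 5 and 372, 376, 344, 378 and 369 in the tunicamycin replicates 1 to 5. Control replicate 1 overlapped the tunicamycin libraries and the other controls did not. The log2 fold change was 0.31 (SE 0.10, edgeR's quasi-likelihood test, adjusted p = 0.0171), and it was lost without control replicate 2, at 0.28 (adjusted p = 0.0518), and with scaling by library size only, at 0.23 (adjusted p = 0.103). ALG13 and ALG14 form the transferase that adds the next N-acetylglucosamine from UDP-GlcNAc. ALG13, the catalytic subunit, had 25 to 37.6 normalized counts in control and 49.8, 76.4, 95.4, 194 and 137 in the tunicamycin replicates 1 to 5. The tunicamycin libraries were all above the controls but uneven, and the log2 fold change was 1.73 (SE 0.28, edgeR's quasi-likelihood test, adjusted p = 9.65e-05). ALG14, its membrane anchor, went from 55.9 ± 12.6 to 92.6 ± 12.3, a log2 fold change of 0.73 (adjusted p = 0.00248 in edgeR's quasi-likelihood test), without overlap. Exons of C2CD2L overlap DPAGT1 on the opposite strand.

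In the turnover and sialic acid list, 3 of 9 tested genes were higher and 1 was lower, beside 17.6% and 16.6% of all genes tested. The median log2 fold change of the list was 0.22. The 3 higher genes, GNE, NANS and CMAS, act in sialic acid synthesis, and the lower one breaks down N-acetylglucosamine 6-phosphate. GNE, the entry enzyme of sialic acid synthesis, rose by 0.98 on the log2 scale (SE 0.27, edgeR's quasi-likelihood test, adjusted p = 0.00903), from 16.4 to 32.4 normalized counts in control to 22.8 to 70.1 with tunicamycin, ranges that overlap. NANS, which makes the phosphorylated sialic acid, had 340, 382, 374, 417 and 381 in control replicates 1 to 5 and 621, 633, 558, 681 and 648 in the tunicamycin replicates 1 to 5. Its groups did not overlap, and it rose by 0.73 (SE 0.09, edgeR's quasi-likelihood test, adjusted p = 2.87e-06). CMAS, which activates sialic acid with CTP, rose by 0.78 (SE 0.17, adjusted p = 0.00178 in edgeR's quasi-likelihood test), and tunicamycin replicate 1, at 64.2, was within the control range of 47.8 to 66. NANP, the phosphatase between NANS and CMAS in this route, was not called, at 0.22 (95% interval -0.22 to 0.66). AMDHD2 encodes the deacetylase that runs against the pathway, removing the acetyl group of N-acetylglucosamine 6-phosphate. It had 251, 194, 183, 184 and 222 in control replicates 1 to 5 and 128, 125, 115, 133 and 117 in the tunicamycin replicates 1 to 5. All tunicamycin libraries were below all controls, with a log2 fold change of -0.74 (SE 0.12, edgeR's quasi-likelihood test, adjusted p = 6.85e-05). UAP1L1, the paralog of UAP1, was not called at -0.24 (95% interval -0.49 to 0.02, adjusted p = 0.151 in edgeR's quasi-likelihood test). Exons of other genes overlap NANS (TRIM14, opposite strand) and AMDHD2 (CEMP1, opposite strand, and ENSG00000259784, same strand), which leaves the counts of these genes uncertain. RENBP and NPL did not pass the filter. GNPDA1 was also called lower without control replicate 4 or without tunicamycin replicate 1, and GNPDA2 higher with the replicate block, without control replicate 5 or without tunicamycin replicate 1, so that the counts of this list moved to 2 lower or 4 higher. With scaling by library size only, GNPDA1 and UAP1L1 were both called lower, which makes 3 lower. GNPDA1, GNPDA2 and NANP were named after their values were seen.

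**Figure D4:**
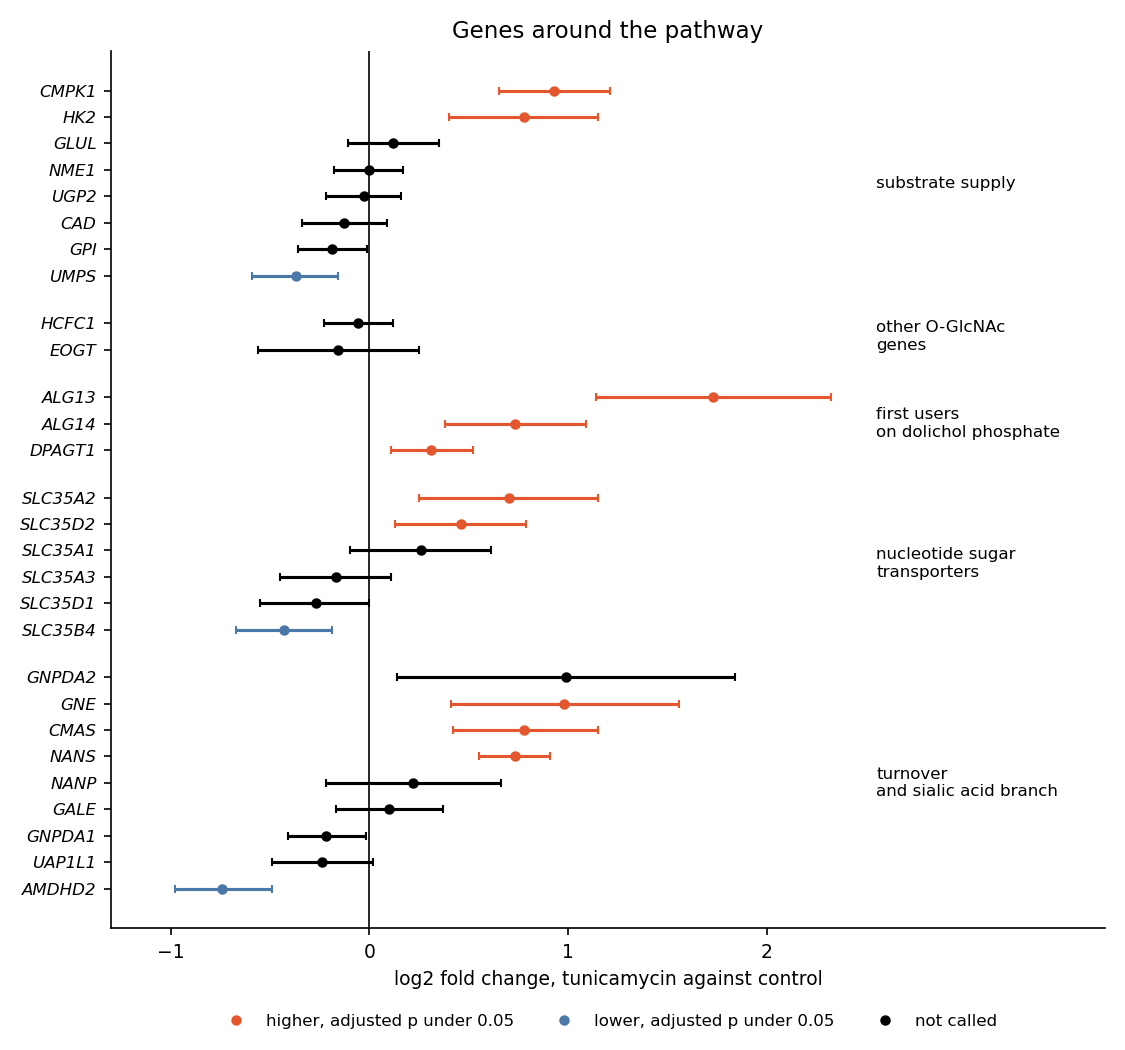
Log2 fold change with its 95% interval (x axis) for the 28 tested genes of the 5 lists around the pathway (y axis, grouped by list), in orange where higher, in blue where lower and in black where not called at an adjusted p under 0.05. The 3 first users on dolichol phosphate are all to the right of 0, and AMDHD2, at -0.74, is farthest to the left.

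Of the transporters that bring nucleotide sugars into the ER and Golgi, SLC35A2, the UDP-galactose carrier, had 43, 83.8, 122, 142 and 116 normalized counts in control replicates 1 to 5 and 127, 180, 167, 173 and 180 in the tunicamycin replicates 1 to 5. Control replicate 1 was the lowest library, and control replicate 4 was above tunicamycin replicate 1. The log2 fold change was 0.70 (SE 0.21, edgeR's quasi-likelihood test, adjusted p = 0.0158). SLC35D2 (0.46) and SLC35B4 (-0.43) were the other transporters called, and were named after their values were seen. The call of SLC35D2 was lost without control replicate 2 (0.40), without tunicamycin replicate 3 (0.41) or 4 (0.43), with scaling by library size only (0.37) and with thinned counts (0.43), each of which leaves 1 higher transporter in place of 2, and 1 more transporter, SLC35D1, was called lower without control replicate 1 and with scaling by library size only. SLC35A3, whose product is known as a UDP-GlcNAc carrier of the Golgi, was not called. SLC35D1 and SLC35A3 were also named after their values were seen. Exons of PQBP1 overlap SLC35A2 on the opposite strand and ENSG00000285269 overlaps SLC35D2 on the same strand.

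Among genes that supply substrates, CMPK1, a nucleoside monophosphate kinase on the way to UTP, had 95.5, 108, 131, 139 and 125 normalized counts in control replicates 1 to 5 and 177, 213, 247, 239 and 274 in the tunicamycin replicates 1 to 5. No libraries overlapped, and the log2 fold change was 0.93 (SE 0.13, edgeR's quasi-likelihood test, adjusted p = 2.51e-05). HK2, a hexokinase, had a range of 110 to 234 in control and 243 to 435 with tunicamycin, a log2 fold change of 0.78 (SE 0.18, edgeR's quasi-likelihood test, adjusted p = 0.00225). HK1 was not tested, with a single count over all libraries. UMPS, which makes UMP, was lower at -0.37, and was named after its value was seen. The rest of the tested genes of this list, GLUL, GPI, CAD, UGP2 and NME1, were not called, and they were named after their values were seen. The row labelled NME2 carries the identifier of the NME1-NME2 readthrough gene in GENCODE and was at 0 in all libraries, so that NME2 itself gets no value here.

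The other genes tied to O-GlcNAc gave no call. EOGT, the ER enzyme that puts O-GlcNAc on secreted and membrane proteins, had 35.6 to 60.4 normalized counts in control and 30.2 to 55.6 with tunicamycin, a log2 fold change of -0.16 (95% interval -0.56 to 0.25). HCFC1, an abundant nuclear protein that OGT modifies and cleaves, had 943 to 1051 in control and 862 to 1081 with tunicamycin, a log2 fold change of -0.06 (95% interval -0.23 to 0.12). Both ranges overlapped, and the interval of HCFC1 is narrower, with 466 or more counts in every library.

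For GFPT1, OGT and MGEA5 the 3 genes with the most similar levels over the 10 libraries were looked up among 7693 genes with a mean of at least 50 normalized counts, by Pearson's r of the log2 levels. The points share the libraries and their scaling, and most of the variation of GFPT1 and OGT lies between the conditions, so that r is a description only. For GFPT1 these were NUCB2, HSP90B1 and SLC33A1 (r = 0.995 for each), with log2 fold changes of 2.25, 2.72 and 1.17. For OGT they were EDEM1 (r = 0.985), ARMC8 (0.982) and FOXK2 (0.981), with log2 fold changes of 2.30, 0.63 and 1.01. For MGEA5 they were AREL1 (r = 0.944), DHDDS (0.919) and ZNF629 (0.913), whose log2 fold changes were between -0.07 and 0.02.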

How the data were processed

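RNA was measured by 3′ mRNA sequencing (QuantSeq, forward) in 10 HepG2 libraries, 5 per condition. The authors mapped the reads with the nf-core RNA-Seq pipeline on hg19 with Ensembl transcript definitions and deposited raw counts per gene, without normalization or filter. The aligner, the counting program and the strand setting are not given in the sources used here. The deposited table has 32738 genes, and 0 of its library columns were left out.

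From the counts, genes were kept by edgeR's filterByExpr (minimum count 2, minimum total 10), TMM factors were applied, and all 12733 genes were fitted together in R 4.3.3 (edgeR 4.0.16, quasi-likelihood test) with no term but condition and with Benjamini-Hochberg adjustment, a gene being called at an adjusted p under 0.05. The SE is the absolute log2 fold change divided by the square root of F. Ratios within a library used an exact permutation test over libraries (scipy 1.17.1). Replicate numbers were taken to pair the libraries, since the series text puts the replicate experiments on separate days. The correlations of paired deviations over 9711 genes were 0.329, 0.00259, 0.0907, 0.153 and 0.109 for replicates 1 to 5, and the partner was the best match in 2 of 5. Each fit was repeated with DESeq2 1.42.0, other scalings and filters, the replicate block, thinned counts, without mitochondrial genes and without each library. The scripts were tested on simulated data.

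The named genes are the 8 members, list genes called with an absolute log2 fold change over 0.5 (at most 4 per list), DPAGT1, EOGT, HCFC1, UAP1L1 and HSPA5, and the 3 genes most like GFPT1, OGT and MGEA5. Others are marked where they appear. Members and lists were chosen with earlier results of these data known. Positions and exon overlaps come from GENCODE on GRCh38, matched by Ensembl identifier (32 of 32 found), and promoter sequences from RefSeq tables of GRCh38.p14, in which 8 of 8 members matched. No hg19 coordinate is given. A further marker gene is not reported here.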

Additional observations from a re-analysis of the deposited data

Results flagged for a closer look

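Over the 60 groups of 5 libraries examined, chance alone is expected to single out about 3 libraries, and 2 were found. SLC35A2 had 127 normalized counts in tunicamycin replicate 1, apart from the 167 to 180 of the other tunicamycin libraries. DPAGT1 had 344 normalized counts in tunicamycin replicate 3, apart from 369 to 378 in the others. Both genes are of the lists around the pathway, and no library stood apart in this way in the 7 tested members.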

How the results depend on the processing

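The 4 members called higher (GFPT1, GNPNAT1, UAP1 and OGT) were called under all 19 alternatives, and 0 members were called lower under any of them. The count of members called higher was 4 or 5, the fifth being PGM3 with edgeR and the replicate block, without control replicate 1 and without tunicamycin replicate 5. Of 532 calls of 28 genes under these alternatives, 520 kept their side of the threshold, 8 lost it, 4 gained it and 0 called values changed direction. These 28 are the tested members, the list genes named by the rule, and SLC35B4, SLC35D2, UMPS and XBP1. The tally leaves out other genes named here, among them GNPDA1, GNPDA2 and SLC35D1, whose calls changed as given above. MGEA5, which was not called, went from -0.03 to 0.01 without control replicate 1 and without tunicamycin replicate 4. Leaving out each library moved the log2 fold change of GFPT1 between 1.79 and 1.89, of OGT between 1.01 and 1.24, of GNPNAT1 between 0.80 and 0.91 and of UAP1 between 0.48 and 0.66. With scaling by library size only, 7 genes of the lists around the pathway were lower in place of 3, and over all genes 1774 were higher and 2570 lower, against 2237 and 2116. This scaling moved the median of all genes to -0.083. Tested with the replicate block, by an exact sign-flip test of 5 pairs, the rises of the log2 ratios stayed at 1.15 (OGT to MGEA5), 0.97, 1.27 and 1.55 (GFPT1 to GNPNAT1, UAP1 and PGM3), but p was 0.0625, the smallest that 5 pairs allow. The replicate block in edgeR added PGM3 and GNPDA2 to the genes called higher and changed no other call of a named gene. The calls of UMPS and SLC35D2 were lost with thinned counts, that of SLC35D2 also with scaling by library size only, and UAP1L1 was called with scaling by library size only. The ratio of GFPT1 to GFPT2 was not run, since GFPT2 had 1 count in all. Depth limits genes with few counts, such as UAP1 and NAGK, and leaves GFPT2 unmeasured.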
